A study of Mus musculus with 10 samples.

Results

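Histone genes were followed across 10 microarray samples of bEnd3, an endothelial line from mouse brain that polyoma middle T antigen keeps dividing. The 48 genes were chosen by symbol alone, as every named feature whose symbol begins with H1f, H2ac, H2bc, H3c or H4c and a digit. They are 48 of 23111 named features and comprise 9 H1, 12 H2A, 13 H2B, 7 H3 and 7 H4 genes. In 5 samples the cells carried a lentivirus with a synthetic, codon-optimized cDNA for mouse Gata4 ahead of an IRES and an mCherry and puromycin resistance cassette. In the other 5 samples, the EV (empty vector) group, the virus held only that IRES cassette. Both viruses used the EF1α promoter, which is active in most cell types, and both groups were selected with puromycin. The titles call the samples biological replicates but do not state whether they were transduced separately, so the p-values reflect sample-to-sample spread that may be technical. According to its title, the study concerns GATA4 in organ-specific endothelial differentiation, and the comparison asks which genes change when this transcription factor is placed in endothelial cells.

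Histones package DNA. H2A, H2B, H3 and H4 form the core of the nucleosome, and H1 linker histones bind the DNA that enters and leaves it. Most of these genes lie in dense clusters, have no introns and are transcribed mainly in S phase, when new DNA has to be packaged. Their mRNAs end in a stem-loop instead of a poly(A) tail, and they are destroyed when replication stops. Most replacement variants, by contrast, come from scattered genes with polyadenylated mRNA, and many are made throughout the cell cycle.

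By their RefSeq annotation (GRCm38.p6), 40 of the 48 genes lie on chromosome 13 and 5 on chromosome 3, the sites of the large replication clusters. The remaining 3 are H1 genes elsewhere: H1f10, a linker histone of many tissues, H1f7, a spermatid form, and H1f8, an oocyte form. The name "replication cluster" therefore does not cover these 3. It also takes in H1f6, H2ac1 and H2bc1, which lie in the chromosome 13 cluster but are known as testis histones. Under the same symbol rule RefSeq lists 67 protein-coding genes, and the other 19 were not analysed here. Members resemble each other closely: for 19 of the 48, among them all H3 and all H4 members, RefSeq's synonyms carry the names of other histone genes. This held for 0 of the 12 H2A members, but gene sequences were not compared, so H2A features may share probes as well. The probe sequences were not used here, so a feature may read RNA of several near-identical genes. The values below are those of features named for a gene. How the RNA was primed before labelling is not given in the sources used here. Whether the values reflect stem-loop mRNA or rarer polyadenylated forms was therefore not tested.

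Promoter sequences of 4 members that fell, and of the neighbouring pair that moved in opposite directions, show motifs known from histone genes. The 4 are H2bc12 and H2ac11, with the 2 largest falls of all members, and H1f5 and H1f2, with the 2 largest falls of the H1 genes. They were picked as examples with the values known, and H2ac4 and H2ac6, whose falls were also large, are not shown. The sequences are from RefSeq (GRCm38.p6), run 5′ to 3′ on the strand of the named gene and end at the base before its annotated start. Capitals mark matches to 4 motifs known from histone promoters, searched for on both strands by exact letters. They are the element CCAAT, bound by NF-Y in many promoters, the core promoter element known as the TATA box with the letters TATAAA, the octamer of H2B promoters with the letters ATTTGCAT, and the H1 box of linker histone promoters with the letters AAACACA. The first sequence is the whole stretch between H2ac12 and H2bc12, at chr13:22035644-22035820 on the plus strand, and the second is the whole stretch between H2ac20 and H2bc21, at chr3:96220881-96221071 on the minus strand. The other 3 are the 150 bases before H2ac11 (chr13:22042950-22043099, minus strand), H1f5 (chr13:21780626-21780775, minus strand) and H1f2 (chr13:23738657-23738806, plus strand).
H2bc12: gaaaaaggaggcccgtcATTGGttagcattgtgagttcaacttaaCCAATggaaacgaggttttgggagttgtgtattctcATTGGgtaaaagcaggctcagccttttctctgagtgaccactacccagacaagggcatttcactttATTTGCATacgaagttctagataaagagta
H2ac20: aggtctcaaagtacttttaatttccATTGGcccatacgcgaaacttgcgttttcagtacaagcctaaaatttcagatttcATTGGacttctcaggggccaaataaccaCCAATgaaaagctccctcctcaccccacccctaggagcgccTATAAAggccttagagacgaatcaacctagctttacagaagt
H2ac11: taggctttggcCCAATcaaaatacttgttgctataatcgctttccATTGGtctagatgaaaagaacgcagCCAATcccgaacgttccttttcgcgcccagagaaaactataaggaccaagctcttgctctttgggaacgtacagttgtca
H1f5: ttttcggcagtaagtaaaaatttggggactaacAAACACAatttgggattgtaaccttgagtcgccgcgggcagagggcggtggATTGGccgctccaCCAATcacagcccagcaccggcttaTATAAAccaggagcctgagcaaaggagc
H1f2: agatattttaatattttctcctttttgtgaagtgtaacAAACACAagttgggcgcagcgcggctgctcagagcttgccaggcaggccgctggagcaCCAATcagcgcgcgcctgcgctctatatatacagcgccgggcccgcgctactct

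Both H1 promoters shown hold the H1 box upstream of a CCAAT box, and the stretch before H2bc12 holds an octamer and 3 CCAAT boxes. Over the 250 bases before the start, 44 members had an entry with 45 windows, since H2bc6 has 2 starts. H2bc4, H2bc21, H3c1 and H3c7 had none. A CCAAT box stood in 38 of the 45 member windows, against 33.8% of all 32851 windows, and a TATA box in 23, against 12.4%. The octamer stood in 6 of 12 H2A and 6 of 12 H2B windows and in none of the windows of the other types, against 1.6% of all windows. Neighbouring H2A and H2B genes share these windows in part, so they are not independent. Some windows also run past the start of the neighbour into that gene. The octamer counted for H2ac20 and the TATA box counted for H2bc12 lie there, outside the stretches printed above. The H1 box stood in 5 of 9 H1 windows, against 6.25% of all, and those 5 belong to H1f2, H1f3, H1f4, H1f5 and H1f6. It also stood in 2 H2A and 2 H2B windows. Of the linker genes outside the clusters, H1f10 and H1f7 held none of the 4 motifs in their windows, and H1f8 held a CCAAT box. H4c2 and H4c8, in the chromosome 13 cluster, held none either. By level, a CCAAT box stood in 21 of 24 windows of members above the median of all genes and in 17 of 21 of the others. For the TATA box these counts were 15 and 8, for the octamer 7 and 5, and for the H1 box 5 and 4. Whether the motifs go with the changes was not tested. A match describes these letters only and says nothing of binding.

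Values are the authors' RMA expression values on the log2 scale, between 2.37 and 13.93 over all features, with a median of 4.13 over the gene means. RMA brings all arrays to 1 distribution, so each change is relative to the other genes, and a shift of all genes would not show. The arrays correlated at 0.9964 to 0.9977 within a group and at 0.9841 to 0.9863 between groups. On the second principal component (5.26% of the variance) the Gata4 samples lay at -4.90 to 5.04. EV samples 1 and 2 stood apart there, at 12.8 and 14.4, against -13.3 to -5.55 for EV samples 3 to 5, so calls were also made without these 2. The feature for endogenous Gata4 stood at 5.08 ± 0.17 in Gata4 samples and 4.75 ± 0.16 in EV samples (SD, n = 5 each), with overlap between the groups (adjusted p = 0.017, limma). It need not detect the codon-optimized transgene. All 7 endothelial markers looked at had means above the median of all genes, with 3 called lower and 3 higher. Their list means were 11.68 to 11.72 in Gata4 samples and 11.65 to 11.88 in EV samples, and average over opposite changes. Kdr (-1.18), Cldn5 (-1.04) and Cdh5 (-0.25) were lower, and Tek (1.53), Tie1 (0.34) and Emcn (0.20) were higher. The averaged log2 level of 7 fibroblast markers was 3.97 to 4.17 in Gata4 samples and 3.92 to 4.19 in EV samples, with 1 lower and 3 higher. For 7 mural cell markers (2 lower, 1 higher) it was 3.94 to 4.03 and 3.93 to 4.37, and for 6 leukocyte markers (1 lower, 1 higher) 3.83 to 3.93 and 4.02 to 4.18, in the same order of groups. Among the leukocyte markers, Cd68, a macrophage lysosomal protein gene, was lower, at 7.30 ± 0.17 in Gata4 samples and 8.53 ± 0.14 in EV samples (adjusted p = 3.6e-07, limma). Adgre1 was the marker called higher, at 3.09 ± 0.13 in Gata4 samples and 2.89 ± 0.04 in EV samples. The pan-leukocyte marker Ptprc lay near the low end, at 2.78 in Gata4 samples and 2.90 in EV samples. The fibroblast and mural means also average over opposite changes. Pdgfra (-1.01) was lower, and Thy1 (0.56), Col3a1 (0.45) and Dcn (0.33) were higher. Acta2 (-0.76) and Cnn1 (-0.50) were lower, and Rgs5 (0.32) was higher. For Acta2, EV samples 1 and 2 were the highest, at 7.50 and 7.95. The shares over all genes were 13.2% lower and 12.4% higher, and above the median level 24.3% and 21.7%. The part of the markers in the histone results was not tested.

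Histone RNA was lower in the Gata4 samples for many H1, H2A, H2B and H4 genes. At an adjusted p under 0.05 (limma, Benjamini-Hochberg over all genes), 24 of the 48 members were lower, 1 was higher and 23 did not pass. Among all genes, 13.2% were lower and 12.4% higher at the same threshold. All 5 Gata4 values lay below all 5 EV values for 23 members, against 10.5% of all genes. The median change of the members was -0.31, against -0.01 for all genes. Of the called members, falls ranged between 1.15-fold for H2bc13 and 3.49-fold for H2bc12. In bulk RNA a smaller share of cells in S phase and less histone RNA per cell cannot be told apart.

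**Figure D1:**
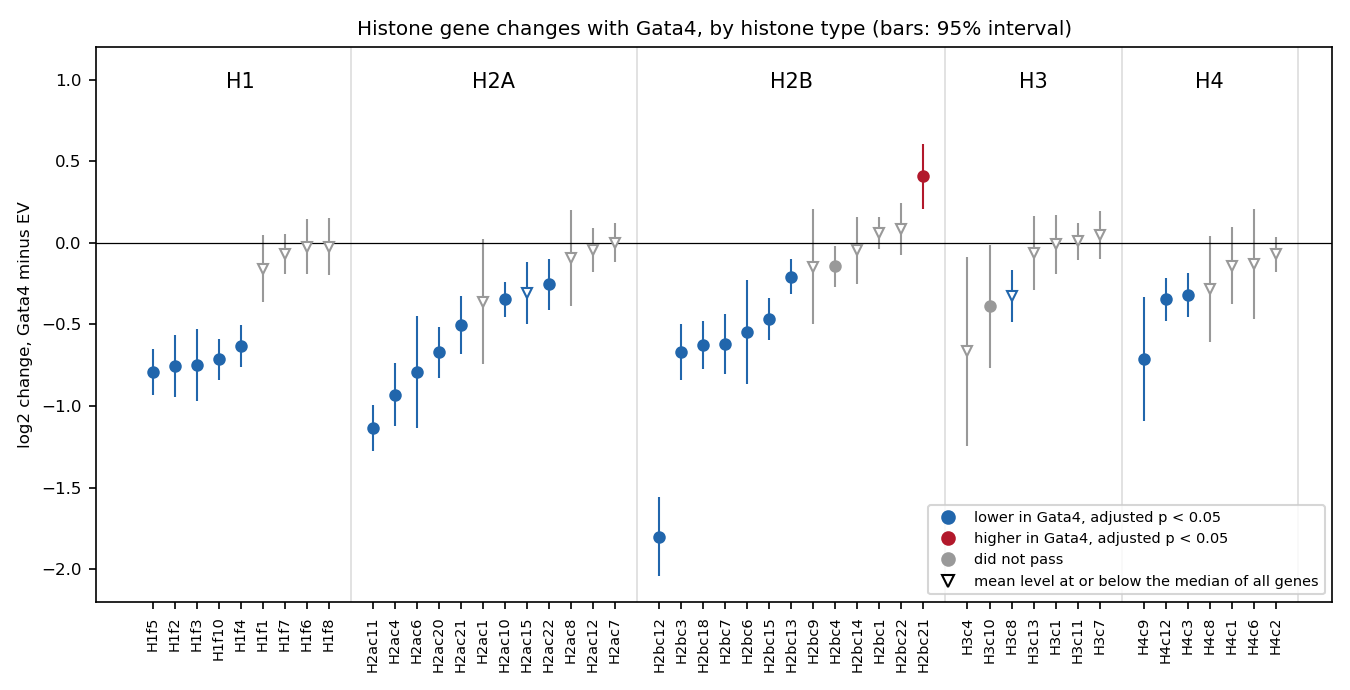
Log2 change (Gata4 minus EV, y axis) of each of the 48 histone genes, grouped by histone type, with 95% intervals from limma. Blue genes were lower and the red gene higher in Gata4 samples at an adjusted p under 0.05; open triangles are genes whose mean level lay at or below the median of all genes. H2bc12 lies lowest at -1.80, and H2bc21 is the only called gene above 0.

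Most of the called members were those with higher levels. Of the 25 members whose mean over all samples lay above the median of all genes, 22 were lower, 1 was higher and 2 did not pass, with a median change of -0.63. Of all genes above that median, 24.3% were lower and 21.7% higher, and their median change was -0.02. Of the 23 members at or below it, 2 were lower and 0 higher. The 2 were H2ac15, at 2.88 ± 0.09 in Gata4 samples and 3.19 ± 0.20 in EV samples, and H3c8, described below. Values in that range may be background, where a change could not be seen, and the table used here holds no detection call.

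**Figure D2:**
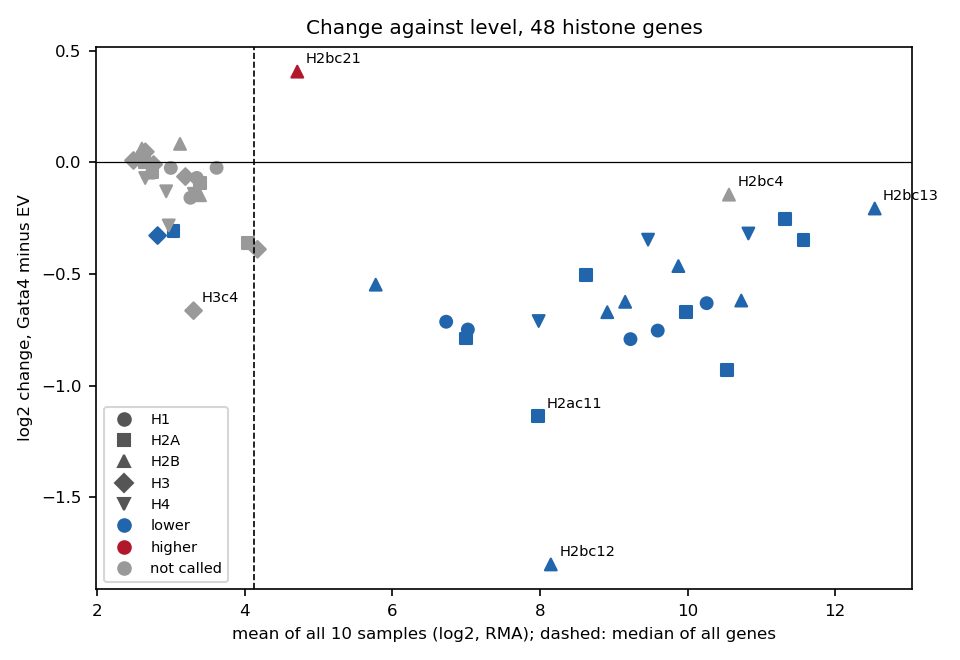
Log2 change (Gata4 minus EV, y axis) against the mean of all 10 samples (x axis, log2) for the 48 histone genes, with the type shown by marker shape and the call by colour. Left of the dashed median of all genes only H2ac15 and H3c8 were called, and right of it 22 of 25 genes were lower.

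Among the linker histone genes, 5 were lower in Gata4 samples. H1f1 to H1f5 encode the H1 proteins of dividing somatic cells, and H1f10 encodes a variant that is not tied to replication. Of the 9 H1 genes 0 were higher, and the 5 that were lower were all the H1 members above the median level, with changes between -0.79 and -0.63. H1f5 read 8.77, 8.72, 8.79, 8.96 and 8.91 in Gata4 samples 1 to 5, against 9.58, 9.49, 9.73, 9.73 and 9.57 in EV samples 1 to 5. Every Gata4 sample lay below every EV sample, and the gene was 1.73-fold lower (95% interval 1.57 to 1.91; adjusted p = 1.3e-06, limma).

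H1f2 gave 9.29, 9.13, 9.07, 9.28 and 9.31 in Gata4 samples, against 9.83, 9.78, 9.92, 10.20 and 10.14 in EV samples. Among the EV samples, 4 and 5 were the highest, and the groups did not overlap (1.69-fold lower, adjusted p = 2.7e-05, limma). For H1f3 the values were 6.49, 6.81, 6.37, 6.65 and 6.92 in Gata4 samples, against 7.42, 7.32, 7.47, 7.55 and 7.23 in EV samples. The Gata4 samples were the more spread group, yet the highest of them stayed below the lowest EV sample (1.68-fold lower, adjusted p = 0.00010, limma). H1f4 averaged 9.94 ± 0.12 in Gata4 samples and 10.57 ± 0.05 in EV samples. H1f10, outside the clusters, averaged 6.37 ± 0.07 in Gata4 samples and 7.09 ± 0.10 in EV samples, a change of -0.71 ± 0.06 (SE). This change lies within the range of those of the clustered H1 genes. H1f1 (-0.16), H1f7 (-0.07) and H1f8 (-0.02) did not pass. The testis gene H1f6 stood at 2.98 ± 0.06 in Gata4 samples and 3.01 ± 0.17 in EV samples, near the low end of the table.

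H2A genes showed a wider range of changes. Of 12 genes 8 were lower and 0 higher, and the 7 above the median level were all lower, between -1.14 and -0.25. H2ac11 read 7.43, 7.40, 7.49, 7.31 and 7.40 in Gata4 samples, against 8.56, 8.38, 8.68, 8.64 and 8.46 in EV samples. The difference of the means was several times the SD within either group, and the gene was 2.20-fold lower (95% interval 1.99 to 2.42; adjusted p = 4.1e-08, limma). H2ac4 gave 10.05, 9.99, 9.97, 10.24 and 10.11 in Gata4 samples, against 10.79, 10.80, 11.07, 11.16 and 11.18 in EV samples. EV samples 1 and 2 were the lowest of their group and still lay above all Gata4 samples (1.91-fold lower, adjusted p = 4.6e-06, limma).

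H2ac6 had values of 6.76, 7.09, 6.36, 6.27 and 6.51 in Gata4 samples, against 7.27, 7.23, 7.37, 7.84 and 7.23 in EV samples. Here the groups came close, since Gata4 sample 2 lay just under the lowest EV samples, and EV sample 4 stood above its group (1.73-fold lower, adjusted p = 0.0022, limma). On chromosome 3, H2ac20 averaged 9.65 ± 0.14 in Gata4 samples and 10.32 ± 0.08 in EV samples, and H2ac21 averaged 8.37 ± 0.14 and 8.87 ± 0.14 in the same order. Smaller called changes were those of H2ac10 (-0.35 ± 0.05 SE), the low H2ac15 (-0.31 ± 0.09 SE) and H2ac22 (-0.25 ± 0.07 SE). H2ac10 averaged 11.40 ± 0.06 in Gata4 samples and 11.74 ± 0.05 in EV samples, and H2ac22 11.19 ± 0.16 in Gata4 samples and 11.45 ± 0.05 in EV samples. H2ac10 and H2ac22 are features with high values in each group. H2ac22 and the low H2ac15 lost their calls without Gata4 sample 3 (adjusted p = 0.053 and 0.052, limma), as did H2ac22 without EV samples 1 and 2 (adjusted p = 0.084). H2ac7, H2ac8 and H2ac12 had changes of 0.00, -0.09 and -0.04, none past the threshold. The testis gene H2ac1 read 3.87 ± 0.10 in Gata4 samples and 4.23 ± 0.46 in EV samples and did not pass (adjusted p = 0.18, limma), although it did without EV sample 1 (adjusted p = 0.046, limma).

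H2B genes held both the largest fall and the only called rise. Of 13 genes 7 were lower and 1 was higher. H2bc12 read 7.55, 7.33, 7.40, 6.83 and 7.12 in Gata4 samples, against 9.04, 8.96, 9.14, 9.01 and 9.09 in EV samples. The EV samples lay within a narrow band and the Gata4 samples were more scattered, with sample 4 the lowest. The gene was 3.49-fold lower (95% interval 2.94 to 4.13; adjusted p = 8.4e-08, limma), and leaving out any 1 sample left its log2 change between -1.88 and -1.70.

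H2bc3 gave 8.61, 8.40, 8.71, 8.75 and 8.42 in Gata4 samples, against 9.38, 9.28, 9.25, 9.23 and 9.10 in EV samples, with no overlap (1.59-fold lower, adjusted p = 3.1e-05, limma). H2bc18, on chromosome 3, gave 8.99, 8.86, 8.71, 8.79 and 8.85 in Gata4 samples, against 9.34, 9.35, 9.56, 9.55 and 9.53 in EV samples. Its fall was of similar size (1.54-fold lower, adjusted p = 1.5e-05, limma). H2bc7 averaged 10.42 ± 0.13 in Gata4 samples and 11.04 ± 0.16 in EV samples, and H2bc15 9.64 ± 0.03 in Gata4 samples and 10.11 ± 0.12 in EV samples, both lower. H2bc6 averaged 5.50 ± 0.24 in Gata4 samples and 6.05 ± 0.30 in EV samples, and its EV samples 1 and 2 (6.35 and 6.41) stood above samples 3 to 5 (5.80 to 5.84). Without those 2 samples the call of H2bc6 was lost (change -0.33, adjusted p = 0.083, limma). H2bc13, at 12.43 ± 0.07 in Gata4 samples and 12.64 ± 0.05 in EV samples, had a change of -0.21 ± 0.05 (SE).

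H2bc21 went the other way. It read 4.78, 4.85, 5.20, 4.73 and 5.02 in Gata4 samples, against 4.63, 4.53, 4.33, 4.45 and 4.61 in EV samples. All Gata4 samples lay above all EV samples, by a small margin, and the gene was 1.33-fold higher (95% interval 1.15 to 1.52; adjusted p = 0.0051, limma). Its level lay only a little above the median of all genes. Most members are short genes: 41 of 48 span 375 to 903 bases in RefSeq, and of these 22 were lower and 0 higher. H2bc21 spans 2667 bases and is 1 of 7 members over 1000 bases. Of these 7, 2 (H1f10 and H2bc6) were lower, 1 was higher and 4 did not pass. Above the median level lay 21 of the short members, 20 of them lower, and 4 of the long ones, 2 of them lower. The shares over all genes were 13.2% lower and 12.4% higher, and above the median level 24.3% and 21.7%. Whether length goes with the change was not tested. H2bc4, which spans 8282 bases, averaged 10.49 ± 0.06 in Gata4 samples and 10.63 ± 0.10 in EV samples and did not pass (adjusted p = 0.091, limma). H2bc9, H2bc14 and H2bc22 had changes of -0.15, -0.05 and 0.08 and did not pass. The testis gene H2bc1 stood at 2.64 ± 0.04 in Gata4 samples and 2.57 ± 0.05 in EV samples.

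**Figure D3:**
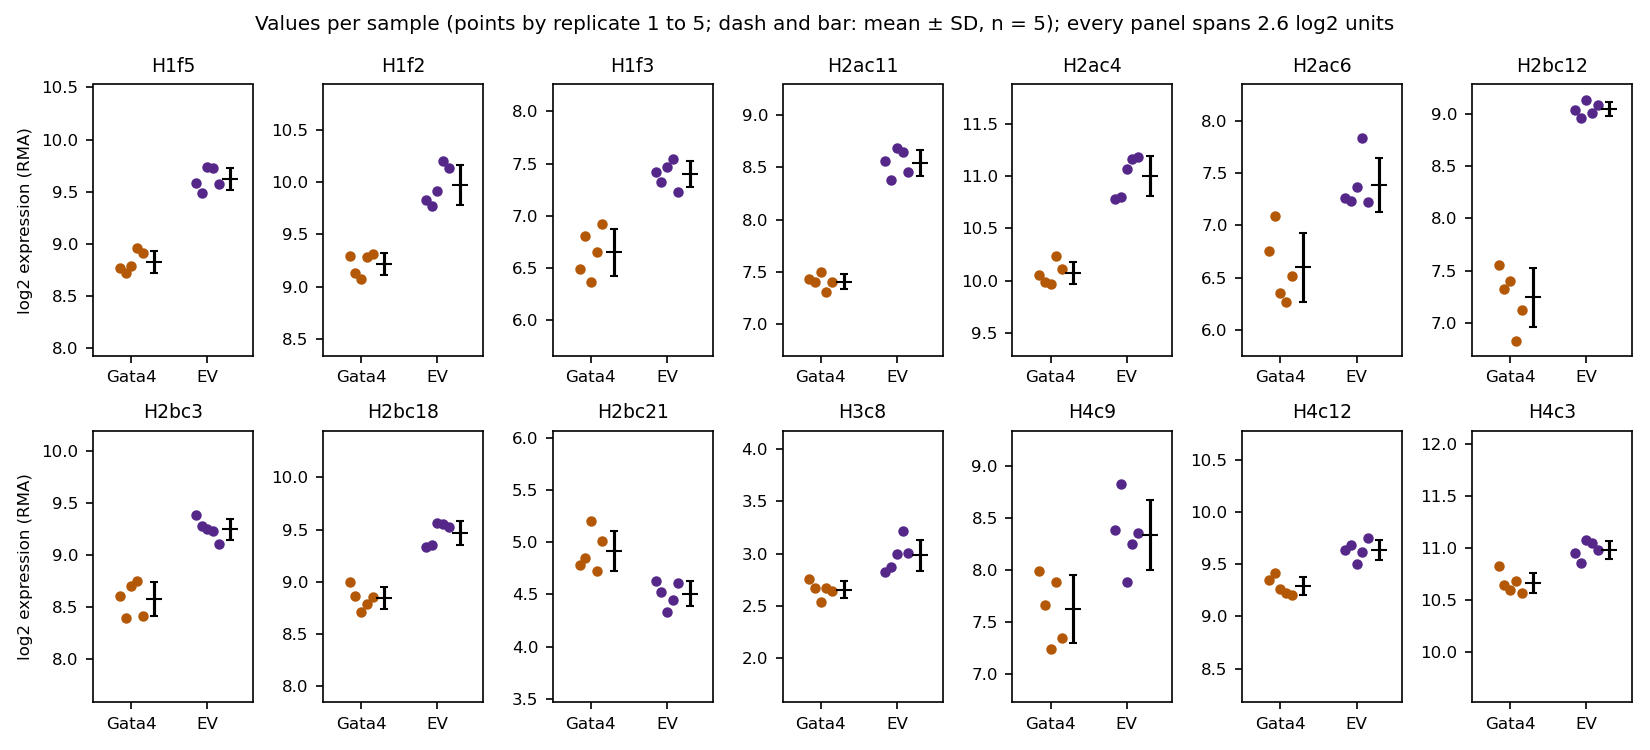
Log2 expression (RMA, y axis) in each of the 5 Gata4 samples (orange, left) and 5 EV samples (purple, right) for 14 histone genes, with the mean and SD beside the points. The groups are separate in every panel except that of H4c9, and H2bc21 alone is higher in Gata4 samples.

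H4 genes gave 3 falls. Of 7 genes 3 were lower and 0 higher, and these were the 3 above the median level. H4c9 read 7.99, 7.67, 7.24, 7.89 and 7.34 in Gata4 samples, against 8.38, 8.82, 7.88, 8.25 and 8.36 in EV samples. EV sample 3 lay among the Gata4 samples, so the groups overlapped (1.64-fold lower, adjusted p = 0.0085, limma; exact two-sided permutation p = 0.024). The call of H4c9 was lost without EV samples 1 and 2 (adjusted p = 0.054, limma) and in an exact rank-sum test (adjusted p = 0.11).

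H4c12 gave 9.35, 9.41, 9.26, 9.23 and 9.21 in Gata4 samples, against 9.64, 9.69, 9.50, 9.62 and 9.75 in EV samples. Every Gata4 sample lay below every EV sample (1.27-fold lower, adjusted p = 0.00078, limma). H4c3 had 10.83, 10.65, 10.60, 10.68 and 10.57 in Gata4 samples, against 10.96, 10.86, 11.08, 11.05 and 10.98 in EV samples. Gata4 sample 1 came close to EV sample 2 without crossing it (1.25-fold lower, adjusted p = 0.0017, limma). H4c1, H4c2, H4c6 and H4c8 had changes of -0.14, -0.07, -0.13 and -0.28 at levels below the median of all genes and did not pass.

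H3 genes could hardly be read. Of 7 members 6 had mean levels at or below the median of all genes, and no H3 value in any sample exceeded 4.73. H3c8 alone was called, with 2.76, 2.67, 2.53, 2.67 and 2.64 in Gata4 samples, against 2.82, 2.88, 3.00, 3.22 and 3.00 in EV samples. The groups did not overlap but both lay near the low end (1.26-fold lower, adjusted p = 0.0047, limma). H3c4 read 2.92, 2.67, 2.95, 3.17 and 3.16 in Gata4 samples, against 3.20, 3.68, 2.72, 4.43 and 4.17 in EV samples. Its EV samples were spread over more than 1 log2 unit, with sample 3 inside the range of the Gata4 samples, and it did not pass (adjusted p = 0.094, limma). Without EV sample 3 it did (adjusted p = 0.0085, limma), and H3c10 (change -0.39, adjusted p = 0.13) did without EV sample 2 (adjusted p = 0.011, limma). H3c1, H3c7, H3c11 and H3c13 had changes between -0.06 and 0.05.

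The 25 members above the median level, of which H2bc21 was higher and H2bc4 and H3c10 did not pass, were also summarised sample by sample. Each member was set against its own mean over all 10 samples, and the median over members was taken in each sample. This median lay between -0.38 and -0.23 in the 5 Gata4 samples, and between 0.23 and 0.37 in the 5 EV samples. For the 5 H1 genes it was -0.44 to -0.28 in Gata4 samples and 0.29 to 0.50 in EV samples, and for the 7 H2A genes -0.48 to -0.26 and 0.23 to 0.40 in the same order. The 9 H2B genes gave -0.26 to -0.16 in Gata4 samples and 0.10 to 0.32 in EV samples. For the 3 H4 genes the ranges almost met, at -0.26 to 0.00 in Gata4 samples and 0.03 to 0.28 in EV samples. These medians describe the samples, with no test. EV samples 1 and 2, with 0.27 and 0.24, lay within the range of EV samples 3 to 5.

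Neighbouring H2A and H2B genes did not always read alike. H2A and H2B genes often stand head to head over a short shared promoter. Among the members there were 8 pairs of an H2A and an H2B gene with fewer than 1000 bases between them. The pairs were taken by distance alone, and their orientation was not checked. In 1 of them, H2ac15 and H2bc15, both genes were lower, and H2ac15 was near the low end. In other pairs H2ac7, H2ac12, H2bc22, H2ac1 and H2bc1 also lay at or below the median level, where a change could have been missed. The number of pairs with both genes lower therefore says little about whether neighbours change together. H2bc12, with the largest fall, lies 177 bases from H2ac12, whose feature stayed near the low end in both groups (2.73 in Gata4 samples and 2.77 in EV samples). H2ac20 and H2bc21 lie 191 bases apart, on either side of the second sequence printed above, and had changes of -0.67 ± 0.07 and 0.41 ± 0.09 (SE). H2ac21, 717 bases from H2bc21, also fell (-0.51 ± 0.08 SE). H2ac6 and H2bc4, 239 bases apart, had changes of -0.79 ± 0.16 and -0.14 ± 0.06 (SE), of which the first passed. Differences between the genes of a pair were not tested, and the features of near-identical genes may read each other's RNA.

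**Figure D4:**
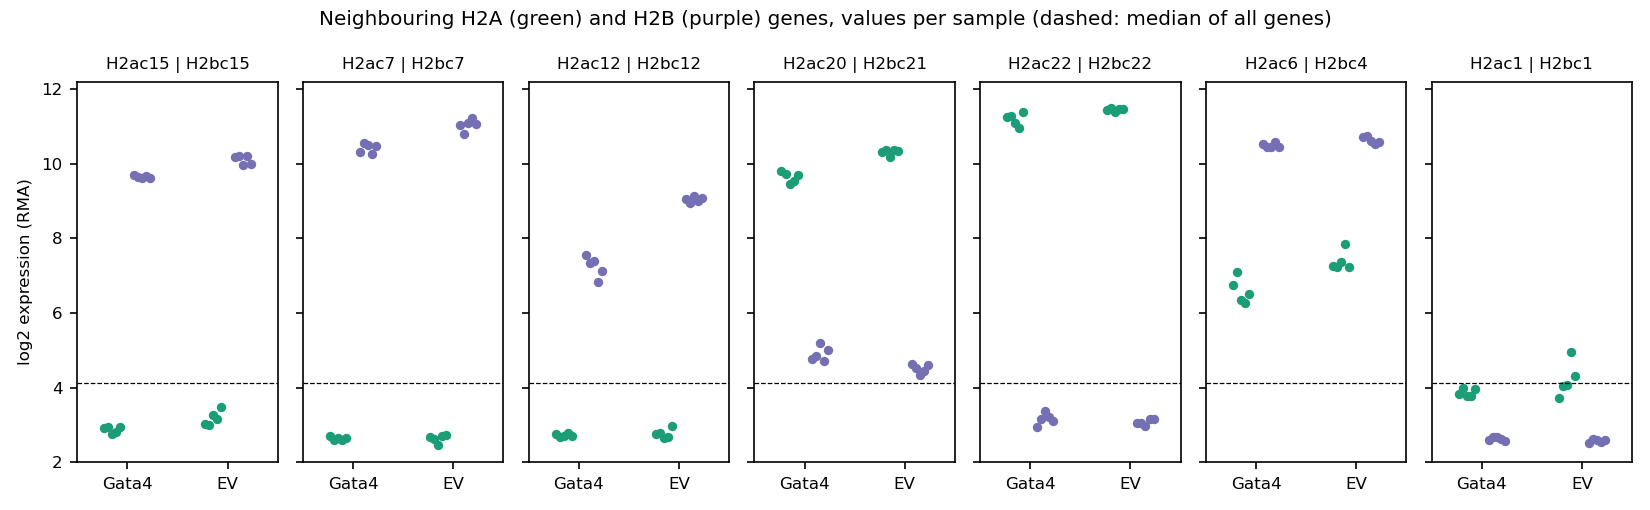
Log2 expression (RMA, y axis) in the 5 Gata4 (left) and 5 EV samples (right) of each panel, for 7 pairs of neighbouring H2A (green) and H2B (purple) genes; the dashed line is the median of all genes, 4.13. In 4 panels 1 gene of the pair lies below the line while the other lies well above it, and H2ac20 and H2bc21 move in opposite directions.

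Along chromosome 13 the members fall into 4 stretches separated by over 100000 bases without a member, a division made after the values were seen. The stretch of H2ac12, H2bc12, H4c9 and H2ac11 held the 2 lowest changes of the whole set, -1.80 for H2bc12 and -1.14 for H2ac11, and H4c9 with -0.71, while H2ac12 was not above the median level. In the stretch between H4c8 and H1f1, 10 of 11 members above the median level were lower, with a median of -0.63. In the stretch between H2bc13 and H2bc22, 5 of 6 were lower, with a median of -0.37. The testis genes H2bc1 and H2ac1 form the last stretch, and neither passed. Of all 5 members on chromosome 3, whatever their level, 3 were lower and H2bc21 was higher. Beside these counts, 24.3% of all genes above the median level were lower and 21.7% higher. Over all genes the shares were 13.2% and 12.4%. Whether the stretches differ was not tested.

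Genes around histone production and S phase were read from lists of related genes. Of 24 S-phase genes 15 were lower and 1 was higher, with a median change of -0.39. All but E2f2, 23 genes, lay above the median level, where 24.3% of all genes were lower and 21.7% higher. Rrm2, a ribonucleotide reductase subunit gene, averaged 9.18 ± 0.06 in Gata4 samples and 9.93 ± 0.10 in EV samples. Cdc45, a part of the replicative helicase, averaged 6.62 ± 0.09 in Gata4 samples and 7.33 ± 0.09 in EV samples. Ccne2, a cyclin E gene, averaged 8.11 ± 0.04 in Gata4 samples and 8.77 ± 0.06 in EV samples. All 3 were lower, with changes of -0.75, -0.71 and -0.66. Tyms, the thymidylate synthase gene, took the opposite direction, at 9.48 ± 0.08 in Gata4 samples and 9.27 ± 0.02 in EV samples.

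Factors that make or process histone mRNA were called in both directions. Of 15 such genes 7 were lower and 2 higher, with a median of -0.11. Of the 15, 14 lay above the median level, where 24.3% of all genes were lower and 21.7% higher. Upf1, a helicase that takes part in the decay of histone mRNA, averaged 7.83 ± 0.11 in Gata4 samples and 8.16 ± 0.07 in EV samples. Hinfp, an activator of H4 genes, averaged 6.82 ± 0.11 in Gata4 samples and 7.14 ± 0.11 in EV samples, and Casp8ap2, a scaffold of histone mRNA processing, 7.58 ± 0.16 in Gata4 samples and 7.89 ± 0.08 in EV samples. These were the largest falls of the list, with changes of -0.33, -0.32 and -0.30. Npat, the coactivator of histone genes that cyclin E and CDK2 switch on, and Slbp, which binds the stem-loop, fell by 0.24 and 0.29 on the log2 scale. Npat and Slbp were named after their values were seen. The rises were those of Cstf2, a cleavage factor subunit gene, at 7.86 ± 0.06 in Gata4 samples and 7.44 ± 0.11 in EV samples, and of Cpsf3, the nuclease that cuts the mRNA end, at 9.08 ± 0.07 in Gata4 samples and 8.89 ± 0.08 in EV samples.

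Of 24 histone chaperone genes, whose products carry histones to and from DNA, 10 were lower and 0 higher by limma, with a median of -0.09. Asf1b, the H3 and H4 chaperone gene of dividing cells, averaged 8.36 ± 0.15 in Gata4 samples and 9.27 ± 0.08 in EV samples. Hirip3 averaged 5.82 ± 0.24 in Gata4 samples and 6.45 ± 0.12 in EV samples. Chaf1a, the large subunit gene of chromatin assembly factor 1, averaged 7.48 ± 0.23 in Gata4 samples and 7.91 ± 0.14 in EV samples. The changes of the 3 genes were -0.91, -0.63 and -0.43. Asf1a, the relative of Asf1b that is not tied to division, had a change of -0.06 that did not pass and was named after its value was seen. All 24 lay above the median level, where 24.3% of all genes were lower and 21.7% higher.

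Replacement variants outside the rule mostly did not pass. Of 9 such genes 1 was lower and 1 higher, with a median of 0.10. That median is the value of H3f3a, whose mean of 3.32 lay below the median level. Above it lay 7 of the 9, and of all genes there 24.3% were lower and 21.7% higher. H2ax, the H2A variant phosphorylated at DNA breaks, averaged 10.81 ± 0.07 in Gata4 samples and 11.24 ± 0.07 in EV samples (adjusted p = 3.9e-05, limma). Macroh2a2 stood near the low end, at 3.24 ± 0.12 in Gata4 samples and 3.01 ± 0.10 in EV samples. H3f3b, H2az1, H2az2 and Cenpa, which encode H3.3, the H2A.Z forms and the centromeric H3, had changes of 0.14, 0.19, -0.14 and 0.22. None passed the threshold, and all were named after their values were seen. H2az2 and Cenpa averaged 8.67 and 8.70 over all samples. H3f3b and H2az1 averaged only 4.90 and 4.19, little above the median of 4.13, so a change of their RNA could have been missed. The variants were not sorted by the end of their mRNA or by when in the cell cycle they are made. The lists were not tested against the histone members.

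**Figure D5:**
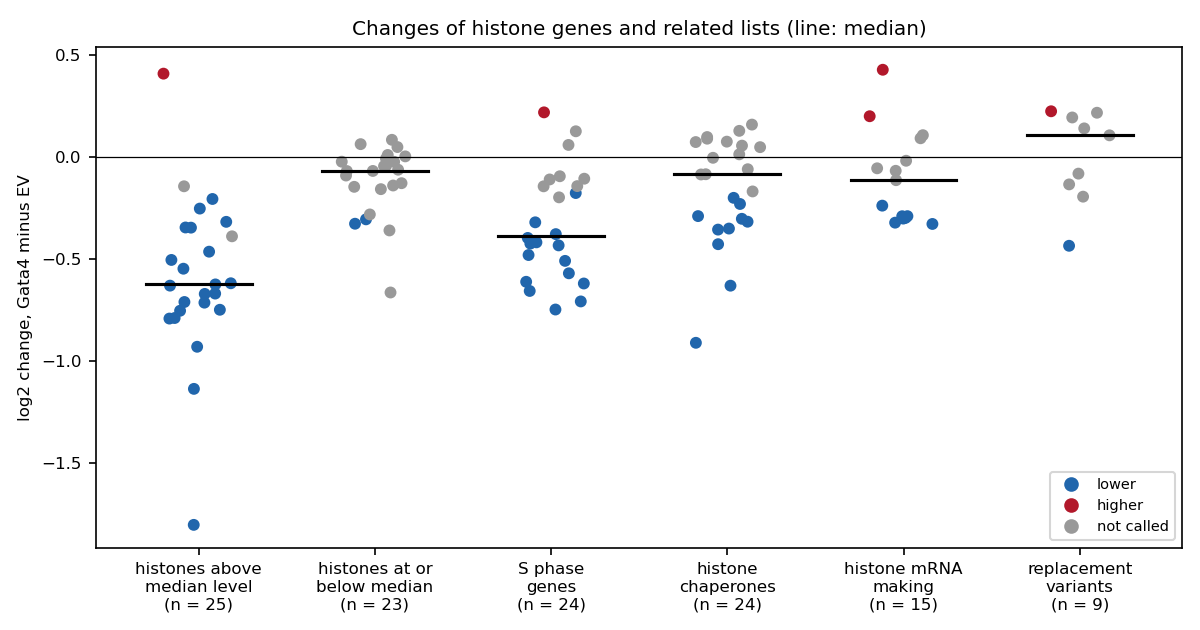
Log2 change (Gata4 minus EV, y axis) of each gene in 6 sets (x axis), coloured by call at an adjusted p under 0.05, with the median as a line. The median is -0.63 for the 25 histone genes above the median level, -0.39 for S-phase genes and 0.10 for replacement variants. Only the histone genes were split by level, and the median over all 48 of them is -0.31. Of the 24 S-phase genes 23, and of the 9 variants 7, lay above the median level. The value of 0.10 is that of H3f3a, whose mean of 3.32 lay below that level.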

How the data were processed

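Total RNA of 10 bEnd3 samples was labelled as biotinylated cRNA and hybridized to Affymetrix arrays, per the labels' protocols. The authors' deposited values are on the log2 scale, made with RMA per the submitters' processing notes. Neither its version nor the build and annotation of the probes is given in the sources used here. Of 23748 features, 23111 had 1 gene symbol in the platform annotation, and the others were left out. No pair of columns was identical. Groups were compared with limma 3.58.1 (R 4.3.3; lmFit, eBayes, two-sided) over 23111 genes in all 10 samples. P-values were adjusted by Benjamini-Hochberg and called under 0.05. The fit was tested on simulated data. Exact permutation tests used all 252 assignments of 5 against 5 samples, which allow no p below 0.0079. For arrays their number limits the precision.

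Members, lists and alternatives were chosen with earlier results of these data known. In each histone type the 3 largest falls and 3 largest rises among called members are given by sample; the other called members, the testis members and up to 3 called genes each way per list are given by mean. H1f10 stood in the list of replacement variants and was counted as a member. Of the listed related genes and markers 5 had no named feature or were members. RefSeq tables (GRCm38.p6) matched all 48 members.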

Additional observations from a re-analysis of the deposited data

Results flagged for a closer look

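Of 96 groups of 5 values (48 genes in 2 groups), 2 held a sample far from the others, and chance flags about 1 group in 20. For H2ac6, EV replicate 4 stood at 7.84, above the other EV samples at 7.23 to 7.37. For H1f7, a gene near the low end, Gata4 replicate 4 stood at 3.45, above the other Gata4 samples at 3.26 to 3.29.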

How the results depend on the processing

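Deviations of Gata4 and EV samples with the same replicate number correlated weakly, between -0.018 and 0.087 over 5 pairs. For Gata4 samples 2, 4 and 5, the EV sample of the same number had the highest correlation among the EV samples. Whether the numbers pair the samples was not tested. A replicate block kept all 25 member calls and added H3c4. With that block the H3 genes called lower were 2, as against 1, and the replacement variants called higher were 2, as against 1. Limma-trend and array weights also gave 2 such variants and the exact rank-sum test gave 0. Among genes above the 25th percentile of levels, 0 H3 genes were lower, 0 replacement variants higher, and the median over the 34 remaining members was -0.49. Among genes above the median level, 0 H3 genes were lower, 1 chaperone gene was higher, and the median over the 25 remaining members was -0.63; both filters remove low members by construction. Without EV samples 1 and 2, 2 H3 genes were lower, 2 chaperone genes higher and 0 replacement variants higher, and H2ac22, H2bc6 and H4c9 lost their calls (adjusted p = 0.084, 0.083 and 0.054, limma); the cause was not tested. Leaving out each sample in turn gave 22 to 25 lower members and 1 higher, 1 to 2 lower H3 genes, 0 to 2 higher chaperone genes and 0 to 2 higher replacement variants. Of the other comparisons made, 391 counts and medians stayed within 1.5 times or the replicate spread. H2bc4 passed with limma-trend (adjusted p = 0.037) and without EV replicate 4 (0.049). Features near the low end limit what could be seen for H3 and for 23 of the 48 members.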
